A study of Homo sapiens with 12 samples.

Results

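The 38 genes described here encode the enzymes and enzyme subunits that build, transfer, trim, branch and cap asparagine-linked sugars, the N-glycans of secreted and membrane proteins. They were taken by name and are represented by 48 of the 50599 probes on the array, among 20503 genes that could be named. Their mRNA was measured in HA22T and PLC5 cells, which are established hepatocellular carcinoma (HCC) cell lines, 48 h after transfection, at 10 nM, with a siRNA pool that targets no gene (siControl) or a commercial pool against GALNT1 (siGALNT1). GALNT1 is a polypeptide GalNAc-transferase that starts mucin-type O-glycosylation, a pathway separate from N-glycosylation. Each of the 4 groups (HA22T siControl, HA22T siGALNT1, PLC5 siControl and PLC5 siGALNT1) had 3 one-color arrays, so every array came from transfected cells.

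N-glycans are first assembled on the lipid dolichol at the endoplasmic reticulum, where the ALG enzymes add mannose and glucose to a core started by DPAGT1. The oligosaccharyltransferase moves the finished sugar onto asparagines of new proteins, glucosidases and mannosidases trim it, and in the Golgi the MGAT enzymes add GlcNAc branches that galactose and sialic acid then extend. In liver this pathway decorates most of the proteins that hepatocytes secrete into plasma.

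Values are log2 signals minus the 75th percentile of the array, so a value of 0 is the signal of the 75th percentile and a difference of 1 is 2-fold. Every array held 58717 spots for genes, of which 36679 to 48873 were well above background, and none was saturated. Each gene was read from its brightest probe. Signals of different probes are not on a common scale, so levels were compared between arrays and not between genes. A comparison of 6 arrays counted a gene if 3 or more of them had its probe well above background, and 37 of the 38 genes were counted in every comparison. The exception was MGAT3, the enzyme of the bisecting GlcNAc, which was well above background on 1 of 12 arrays and is not compared. The RNA came from whole cultures, so fewer cells with a transcript and less transcript per cell cannot be told apart.

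The GALNT1 signal checked the labels. In HA22T cells it was 1.32, 0.75 and 0.85 on the siControl arrays and -3.15, -3.68 and -5.55 on the siGALNT1 arrays. In PLC5 cells it was 0.87, 0.37 and 0.61 on the siControl arrays and -1.93, -3.47 and -3.92 on the siGALNT1 arrays. The groups did not overlap in either line. The difference was -5.10 (SE 0.61, adjusted p = 0.0708, lower on 3 of 3 arrays) in HA22T cells and -3.72 (SE 0.61, adjusted p = 1.00, lower on 3 of 3 arrays) in PLC5 cells, so neither passed an adjusted p of 0.05 over all counted probes with limma. A dimmer GALNT1 probe gave -4.75 in HA22T cells with an adjusted p of 0.0305. Without PLC5 siGALNT1 replicate 1 the brighter probe also passed in HA22T cells, with an adjusted p of 0.0273, but the fit that blocked on replicate number gave no call (adjusted p = 0.203).

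The lines differed in the markers of their tissue. All 8 hepatocyte markers were lower in HA22T than in PLC5 cells (median difference -5.36 in siControl cells), with TF (transferrin) at -6.35 and TTR (transthyretin) at -6.58 in HA22T siControl cells, where each was well above background on 1 of 3 arrays. Of 4 mesenchymal markers, VIM, SPARC and CDH2 had higher values and FN1 had lower values in HA22T cells. The endothelial marker PECAM1 differed by -5.41 between HA22T and PLC5 siControl cells, and the other endothelial marker, CDH5, by -0.32. The part of these line characteristics in the differences below was not tested.

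None of the 37 counted N-glycan genes passed the test of the siRNA effect in either line. The brightest GALNT1 probe (-5.10 in HA22T and -3.72 in PLC5 cells) did not pass an adjusted p of 0.05 either. That threshold could therefore miss smaller changes. In HA22T cells 0 of 37 passed an adjusted p of 0.05 with limma, beside 0.00275% of the 36327 counted probes, and 0 passed an unadjusted p of 0.05, beside 2.99%. In PLC5 cells 0 of 37 passed the adjusted threshold, beside 0.00% of 38070 counted probes, and 0 passed an unadjusted p of 0.05, beside 1.33%. The study's methods asked for a fold change of 1.5 or more and an unadjusted p under 0.05, which was met by 0 of 37 genes in HA22T cells (2.87% of all probes) and by 0 of 37 in PLC5 cells (1.29%), and the methods' t-test likewise gave 0 in both lines at this criterion. With the replicate number as a block, 1 gene in HA22T cells met that criterion (beside 4.84% of all probes), the mannosidase MAN1A1 (-0.59, unadjusted p = 0.0407, adjusted p = 0.848). MAN1A1 read -1.49, -0.84 and -0.89 on the siControl arrays and -2.18, -1.34 and -1.45 on the siGALNT1 arrays of replicates 1, 2 and 3 in HA22T cells, so each replicate pair had a lower value with siGALNT1 while the groups overlapped.

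The intervals show how large a change could have been missed. In HA22T cells the differences ran from -0.59 to 0.78, all 37 of the 95% intervals crossed 0, and 31 of 37 lay wholly within a 2-fold change in either direction. In PLC5 cells they ran from -0.30 to 0.45, all 37 intervals crossed 0, and 33 of 37 lay within 2-fold. The median was -0.11 in HA22T cells, beside -0.06 over all counted probes, with 6 genes above 0 and 31 below. Of all counted probes, 15431 were above 0 and 20896 below. When the 75th percentile was taken over unflagged spots the median of the 37 genes became 0.01, with 19 above and 18 below. The median over all counted probes then rose too, to 0.06. Without HA22T siControl replicate 1 the median of the 37 genes was -0.05, with 16 above and 21 below, beside -0.0008 over all counted probes. In PLC5 cells the median was 0.08, beside 0.01 over all counted probes, with 28 genes above 0 and 9 below, and it turned to -0.05 (15 above and 22 below) without PLC5 siGALNT1 replicate 1 and to -0.03 (18 above and 19 below) without PLC5 siControl replicate 2. A difference in the siRNA effect between the lines passed for none of the 37 genes (interaction term, 0 at an adjusted p of 0.05 and 0 at an unadjusted p of 0.05, beside 0.00% and 2.43% of 39100 probes).

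**Figure D1:**
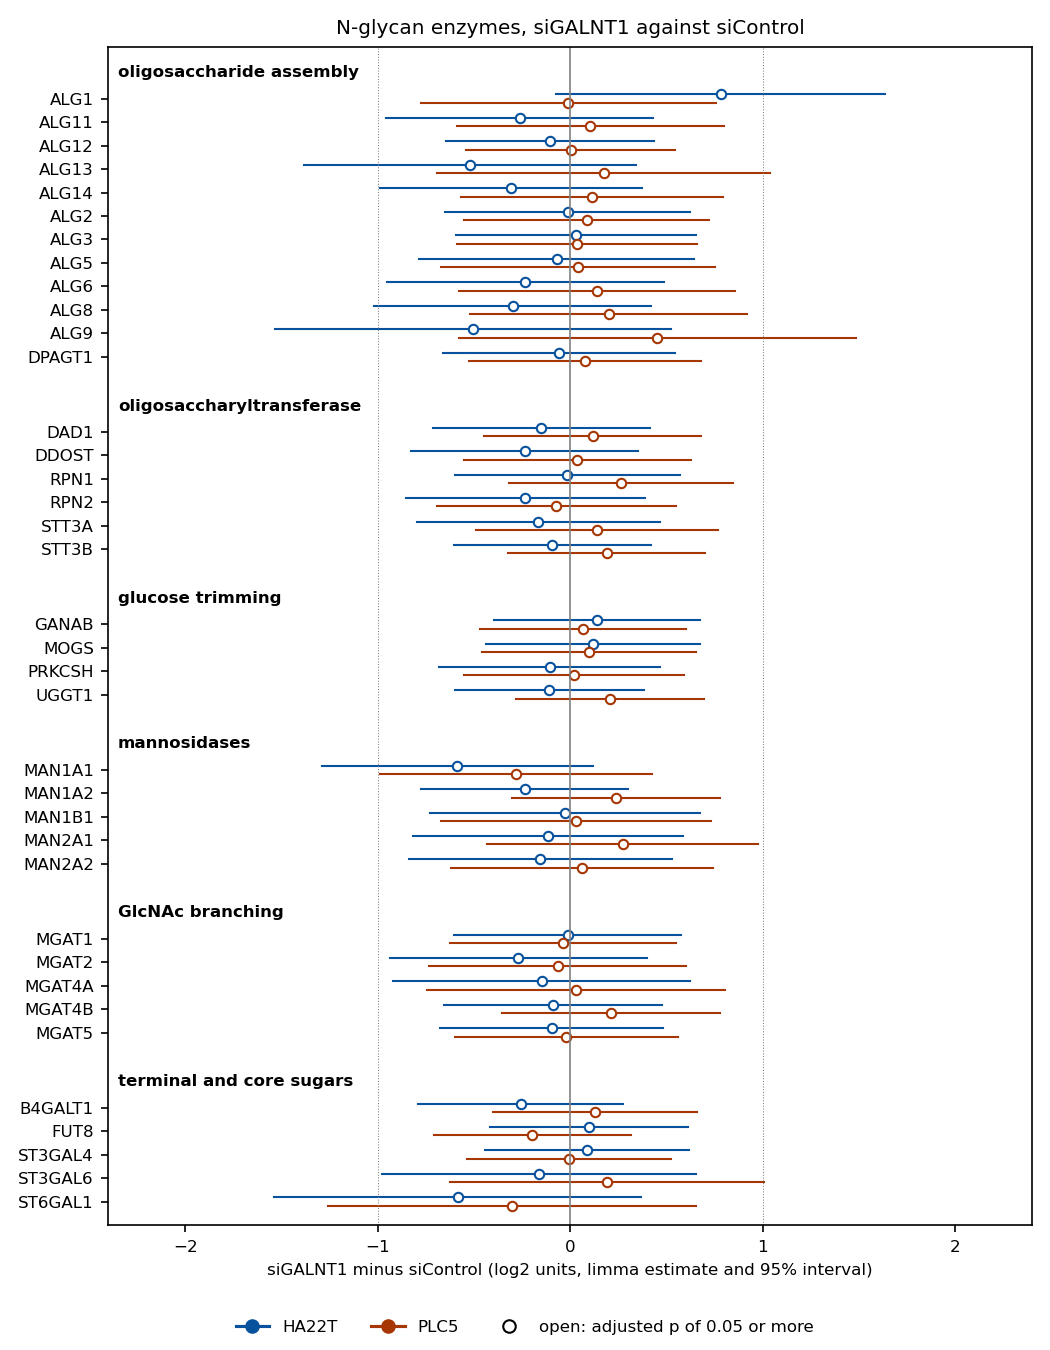
Difference between siGALNT1 and siControl (x axis, log2 units, limma estimate with 95% interval) for the 37 counted N-glycan genes (y axis, grouped by role) in HA22T (blue) and PLC5 cells (brown), with dotted lines at a 2-fold change. Every interval crosses 0, and no point is filled, since no gene passed an adjusted p of 0.05.

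The values with the largest siRNA differences in HA22T cells were 0.78 for ALG1, -0.59 for MAN1A1 and -0.59 for the sialyltransferase ST6GAL1. The ALG1 value rests on 2 siControl arrays (2.14 and 3.31), as the spot of the remaining array was flagged, and 3 dimmer ALG1 probes gave 0.12, -0.09 and -0.17. In PLC5 cells the largest were 0.45 for the mannosyltransferase ALG9, -0.30 for ST6GAL1 and -0.28 for MAN1A1. ALG9 was the single gene of 37 whose PLC5 groups did not overlap (beside 4.11% of 35405 probes), and in HA22T cells it was 0 of 36 (beside 8.83% of 32440 probes). Within PLC5 cells the ALG9 difference was 0.87 on the first slide and 0.24 on the second.

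The lines themselves differed in many of these genes, and the differences went both ways. In siControl cells 13 of 37 genes differed at an adjusted p below 0.05, beside 22.0% of 38011 counted probes. Of these, 5 were higher in HA22T cells (beside 11.0%) and 8 were higher in PLC5 cells (beside 11.0%). In siGALNT1 cells 19 of 37 differed, beside 22.9% of 36741 probes, with 6 higher in HA22T and 13 higher in PLC5 cells (beside 9.79% and 13.1%). The 13 genes of siControl cells were all among the 19, each in the same direction (13 of 37, beside 17.4% of 35837 probes counted in both). The siControl and siGALNT1 comparisons share no array, but they are not independent. They were fitted together with a shared estimate of the spread and used the same slides, and same-numbered HA22T arrays deviated together. For 17 of the 36 genes with a value on every array, the 6 arrays of HA22T cells did not overlap the 6 of PLC5 cells (beside 27.3% of 31056 probes), with 7 higher in HA22T (beside 12.9%) and 10 higher in PLC5 cells (beside 14.4%). The median difference of the 37 genes, HA22T minus PLC5, was -0.21 in siControl and -0.43 in siGALNT1 cells, beside 0.04 and 0.10 over all counted probes. These medians were smaller in size under some alternatives. In siControl cells the median was -0.12 without PLC5 siControl replicate 1, beside 0.02 over all counted probes. With median scaling or with the percentile over unflagged spots it was -0.10 there, beside 0.15. With the percentile over unflagged spots it was -0.20 in siGALNT1 cells, beside 0.32. Under these scalings the median over all probes thus rose too. With the slide as a block the medians were larger in size, at -0.32 and -0.60, beside 0.07 and 0.08.

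The arrays of HA22T cells were all on a slide that also held replicate 1 of both PLC5 groups, while the other 4 PLC5 arrays were on a second slide. Within the first slide all 13 and all 19 called genes had the same direction as over all arrays. This reuses the HA22T arrays and PLC5 replicate 1 on which the genes were called, so it is not a separate check of the slide. With the slide as a block, 15 genes passed in siControl cells (beside 17.8%) and 16 in siGALNT1 cells (beside 20.0%), and 12 and 14 of these were genes called without the block. With the replicate number as a block, 16 and 21 passed (beside 24.9% in each). In siGALNT1 cells the count fell to 9 without PLC5 siGALNT1 replicate 1 (beside 6782 of 36700 counted probes). It fell to 12 without PLC5 siGALNT1 replicate 2 (beside 5979 of 36694). It was 9 when only the groups compared were fitted (beside 5288 of 36741) and 7 with the methods' t-test after adjustment (beside 3967 of 36741). The calls over all probes thus fell as well, from 8407 of 36741 in the main fit. Under all of the alternatives tried, DPAGT1, STT3A, MAN1A1, ST3GAL4 and ST6GAL1 passed in both siRNA groups, wherever their probe was counted.

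**Figure D2:**
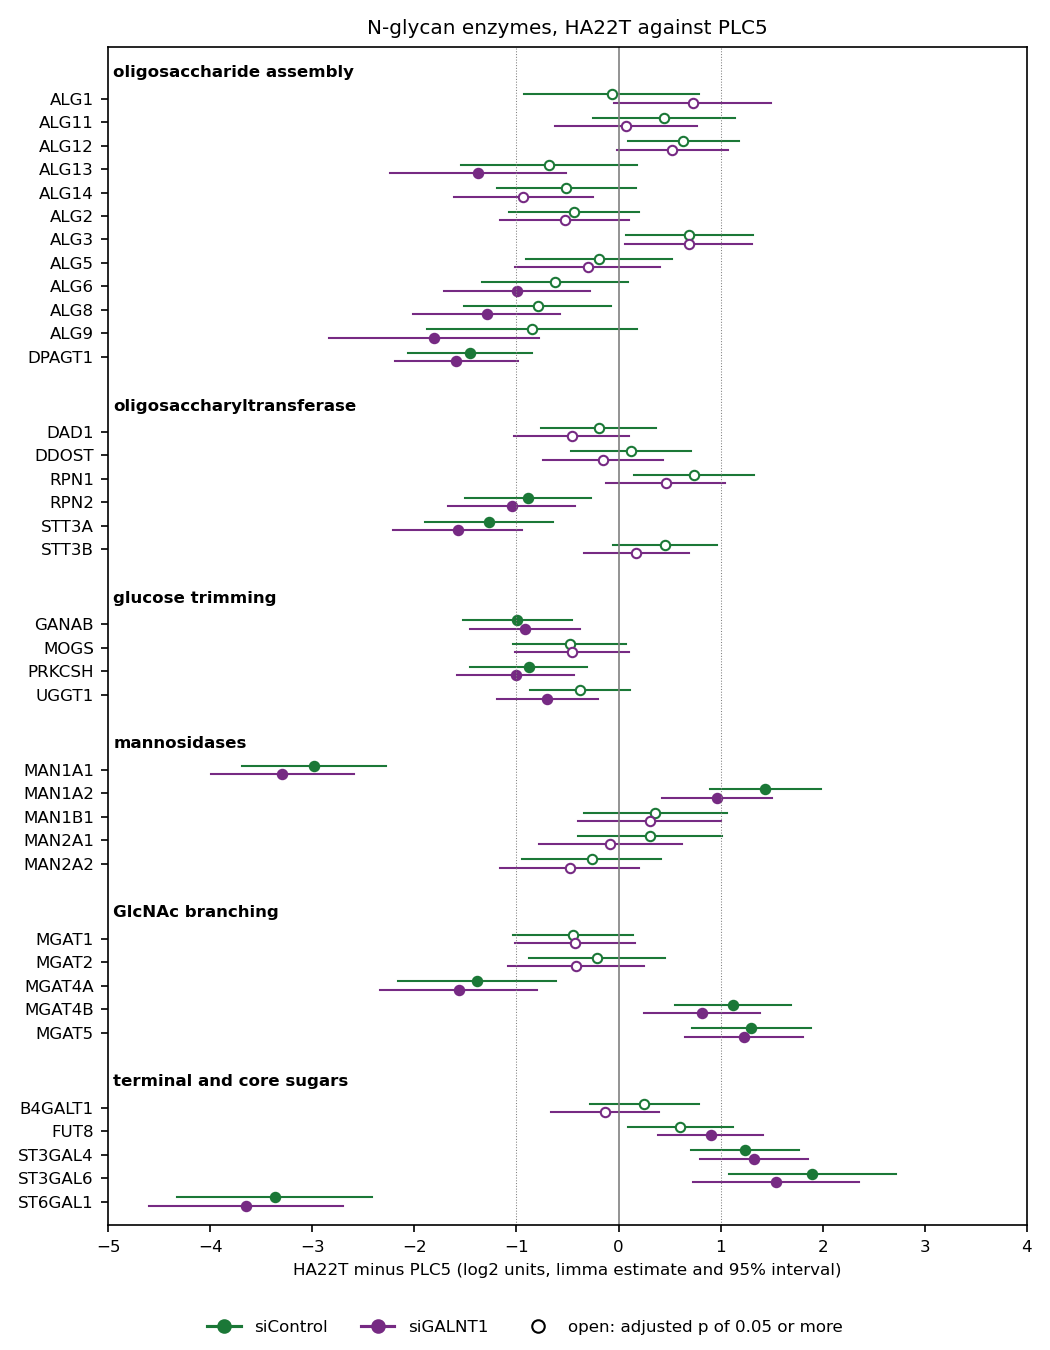
Difference between HA22T and PLC5 cells (x axis, log2 units, limma estimate with 95% interval; values below 0 are higher in PLC5) for the 37 counted N-glycan genes (y axis, grouped by role) in siControl (green) and siGALNT1 cells (purple). Filled points passed an adjusted p of 0.05, and the points farthest from 0 are ST6GAL1 at -3.37 and -3.65 and MAN1A1 at -2.99 and -3.29.

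Of the 12 genes that assemble the lipid-linked sugar, 1 passed in siControl cells (beside 22.0% of all counted probes) and 5 in siGALNT1 cells (beside 22.9%), all lower in HA22T than in PLC5 cells. DPAGT1, which commits dolichol to the pathway by adding the first sugar, read 1.41, 1.104 and 1.08 on the HA22T siControl arrays and 3.00, 2.25 and 2.71 on the PLC5 siControl arrays. With siGALNT1 it read 1.08, 1.05 and 1.30 in HA22T cells and 3.11, 2.67 and 2.41 in PLC5 cells. No HA22T array reached the lowest PLC5 array. The difference was -1.46 (SE 0.27, adjusted p = 0.00261), or 2.74-fold, in siControl cells and -1.59 (SE 0.27, adjusted p = 0.00153), or 3.01-fold, in siGALNT1 cells.

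ALG8 and ALG6, which add glucose to the growing sugar, and the mannosyltransferase ALG9 passed in siGALNT1 and not in siControl cells, and the interaction term passed for none of them. ALG8 read 0.48, -0.07 and 0.20 in HA22T siControl cells and 1.54, 0.66 and 0.79 in PLC5 siControl cells. The siGALNT1 arrays gave -0.0030, -0.19 and -0.09 in HA22T cells and 1.75, 1.13 and 0.72 in PLC5 cells. The lines did not overlap in either siRNA group, and the differences were -0.79 (SE 0.33, adjusted p = 0.113) and -1.29 (SE 0.33, adjusted p = 0.0147). ALG6 differed by -0.62 (adjusted p = 0.215) and -0.996 (adjusted p = 0.0481). With the slide as a block both genes also passed in siControl cells (-1.34 for ALG8 and -1.13 for ALG6). The siGALNT1 call was less stable for ALG6, which passed under 10 of 25 alternatives, than for ALG8, which passed under 23.

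ALG9 had a dim probe. It read -5.17, -4.09 and -2.88 in HA22T siControl cells and -3.45, -2.92 and -3.22 in PLC5 siControl cells. After siGALNT1 the values were -4.28, -4.95 and -4.44 in HA22T cells, where 1 of 3 arrays was well above background, and -2.58, -2.78 and -2.89 in PLC5 cells. The siControl groups overlapped through HA22T replicate 3 and the siGALNT1 groups did not, with differences of -0.85 (SE 0.47, adjusted p = 0.242) and -1.81 (SE 0.47, adjusted p = 0.0168). The call was lost with the slide as a block (adjusted p = 0.0623) and with normexp, where the difference was -0.90.

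ALG13, a subunit of the enzyme that adds the second GlcNAc, read 2.69, 1.20 and 1.70 in HA22T siControl cells and 2.67, 2.27 and 2.69 in PLC5 siControl cells. With siGALNT1 it read 1.92, 0.79 and 1.31 in HA22T cells and 2.84, 2.84 and 2.47 in PLC5 cells. HA22T replicate 1 was the highest of its group with either siRNA. The difference was -0.68 (SE 0.39, adjusted p = 0.264) in siControl and -1.38 (SE 0.39, adjusted p = 0.0267) in siGALNT1 cells, while a dimmer ALG13 probe gave 0.09 and -0.22. With the slide as a block the adjusted p in siGALNT1 cells was 0.0568.

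The other 7 genes of this step did not pass with either siRNA, apart from ALG14 in siGALNT1 cells with a block for the slide (-1.31) or for the replicate number (-0.93), ALG3 with the replicate block (0.70 and 0.69) and ALG12 in siControl cells with the replicate block (0.64). The 7 had differences from -0.93 for ALG14 in siGALNT1 cells to 0.73 for ALG1 in siGALNT1 cells. For ALG1, which adds the first mannose and has near-identical copies in the genome, the 4 probes ran from -2.79 to -0.07 in siControl cells, so its value is uncertain. ALG12, a mannosyltransferase, was higher on all 6 HA22T arrays (6.37 to 6.71) than on any PLC5 array (5.67 to 6.25), with differences of 0.64 (adjusted p = 0.0931) and 0.53 (adjusted p = 0.150). On the first slide alone these were 0.28 and 0.23.

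Promoters, taken here as 250 bases before to 50 after each transcript start from RefSeq on GRCh38.p14, were found for 32 of the 38 genes (59 promoters of 35116 for all genes) and were searched on both strands for short motifs. The endoplasmic reticulum stress element, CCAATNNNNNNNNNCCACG, was found in 1 of 59 promoters, that of ALG12, and in 0.0769% of all promoters. The stretch that holds it is shown because it is the single match among these genes, with the element in capitals, at chr22:49918544-49918582 on the minus strand.
ALG12 promoter stretch: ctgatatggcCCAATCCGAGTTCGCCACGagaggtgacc
The GC box, GGGCGG, was found in 67.8% of the 59 promoters and in 45% of all promoters, and CCAAT, which also lies within the stress element, in 39% and 34.6%. The 59 promoters had a median GC content of 61%, beside 58.7% over all promoters. TATAAA was found in 3.39% and 11.5%, GTTAAT in 5.08% and 6.88%, TGACGTCA in 0 of 59 and 1.85%, and TGACGTGG in 0 of 59 and 0.729%.

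Of the 6 oligosaccharyltransferase genes, STT3A and RPN2 were lower in HA22T cells and the other 4 did not pass. Over all counted probes 22.0% passed in siControl and 22.9% in siGALNT1 cells. STT3A is the catalytic subunit that works while the protein is still entering the endoplasmic reticulum. It read 2.09, 1.94 and 1.71 in HA22T siControl cells and 3.55, 2.84 and 3.17 in PLC5 siControl cells. The siGALNT1 arrays gave 1.68, 1.96 and 1.61 in HA22T cells and 3.76, 3.28 and 2.93 in PLC5 cells. The lines did not overlap, and the difference was -1.27 (SE 0.29, adjusted p = 0.00771), or 2.41-fold, in siControl and -1.58 (SE 0.29, adjusted p = 0.00211), or 2.98-fold, in siGALNT1 cells.

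STT3B, the alternative catalytic subunit that also acts on sites the first has skipped, did not follow. It read 0.58, 0.24 and 0.70 in HA22T siControl cells and 0.09, 0.03 and 0.03 in PLC5 siControl cells. After siGALNT1 the values were 0.25, 0.49 and 0.51 in HA22T cells and 0.01, 0.51 and 0.20 in PLC5 cells, so the lines overlapped. The differences were 0.46 (SE 0.23, adjusted p = 0.204) and 0.17 (SE 0.23, adjusted p = 0.635). RPN2, a non-catalytic subunit, differed by -0.89 (adjusted p = 0.0439) and -1.05 (adjusted p = 0.0202), and its dimmer probe by -1.10 and -1.30. The RPN2 call held under 9 of 25 alternatives in siControl cells (lost with median scaling, the deposited table and the methods' t-test, among others) and under 18 in siGALNT1 cells. RPN1, DDOST and DAD1 had differences from -0.46 to 0.74.

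Of the 4 genes of glucose trimming and the folding check, all had values below 0 in the line comparison. GANAB and PRKCSH, which encode the catalytic and regulatory subunits of glucosidase II, were both lower in HA22T cells. GANAB differed by -0.99 (SE 0.24, adjusted p = 0.0128) in siControl and -0.92 (SE 0.24, adjusted p = 0.0190) in siGALNT1 cells. PRKCSH differed by -0.88 (SE 0.26, adjusted p = 0.0318) and -1.01 (SE 0.26, adjusted p = 0.0168). UGGT1, which puts glucose back on misfolded glycoproteins, passed in siGALNT1 cells (-0.70, adjusted p = 0.0442; adjusted p = 0.132 with the slide as a block) and not in siControl cells (-0.38), and glucosidase I, encoded by MOGS, passed only with the slide as a block (-0.48 and -0.46 without it, -0.82 and -0.80 with it). The 6 HA22T arrays did not overlap the 6 PLC5 arrays for GANAB, PRKCSH or UGGT1. Under the 25 alternatives the UGGT1 call held in 6 and the siControl call of PRKCSH in 16.

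Among the 5 mannosidase genes, the paralogues MAN1A1 and MAN1A2 moved in opposite directions. Both encode Golgi class I mannosidases that trim mannose before branching. Against the HA22T values of -2.18 to -0.84 given above, MAN1A1 read 1.76, 1.89 and 2.10 in PLC5 siControl cells and 1.27, 2.11 and 1.53 in PLC5 siGALNT1 cells. Every HA22T array was below every PLC5 array, and the difference was -2.99 (SE 0.32, adjusted p = 4.75e-05), or 7.94-fold, in siControl and -3.29 (SE 0.32, adjusted p = 2.47e-05), or 9.80-fold, in siGALNT1 cells.

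MAN1A2 read 0.81, 0.43 and 0.16 in HA22T siControl cells and -1.02, -1.11 and -0.80 in PLC5 siControl cells. With siGALNT1 it read 0.25, 0.09 and 0.34 in HA22T cells and -0.90, -0.49 and -0.82 in PLC5 cells. It was higher on every HA22T array, by 1.44 (SE 0.25, adjusted p = 0.00133) in siControl and 0.97 (SE 0.25, adjusted p = 0.0152) in siGALNT1 cells. A dimmer MAN1A2 probe gave 1.43 and 0.97.

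The promoter of MAN1A1, at chr6:119349712-119350011 on the minus strand of GRCh38.p14, is shown with that of ST6GAL1, at chr3:186930276-186930575 on the plus strand, because these genes had the largest line differences in the main analysis. The capitals mark GGGCGG and CCAAT on either strand, and the GC content was 77.3% for MAN1A1 and 64% for ST6GAL1.
MAN1A1 promoter: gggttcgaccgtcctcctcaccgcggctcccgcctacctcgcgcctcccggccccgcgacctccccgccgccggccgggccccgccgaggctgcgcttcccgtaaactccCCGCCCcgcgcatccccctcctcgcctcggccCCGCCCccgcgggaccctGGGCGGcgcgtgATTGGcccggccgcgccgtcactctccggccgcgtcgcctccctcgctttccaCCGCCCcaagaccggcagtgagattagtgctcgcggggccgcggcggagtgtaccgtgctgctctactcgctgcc
ST6GAL1 promoter: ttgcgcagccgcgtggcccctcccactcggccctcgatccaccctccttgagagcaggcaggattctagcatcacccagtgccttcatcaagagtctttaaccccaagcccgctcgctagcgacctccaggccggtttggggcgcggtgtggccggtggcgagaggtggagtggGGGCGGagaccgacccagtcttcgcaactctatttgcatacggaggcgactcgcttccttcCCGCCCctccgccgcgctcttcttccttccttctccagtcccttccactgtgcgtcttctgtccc

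The Golgi mannosidases II, encoded by MAN2A1 and MAN2A2, remove further mannose after the first GlcNAc branch. MAN2A1 read -0.82, -1.35 and -1.38 in HA22T siControl cells and -2.03, -1.17 and -1.26 in PLC5 siControl cells, and with siGALNT1 it read -1.28, -1.24 and -1.37 in HA22T cells and -1.40, -0.68 and -1.57 in PLC5 cells. MAN2A2 read -0.65, -0.91 and -0.52 in HA22T siControl cells and -0.63, -0.10 and -0.55 in PLC5 siControl cells, and with siGALNT1 it read -1.001, -1.06 and -0.48 in HA22T cells and -0.33, 0.14 and -0.91 in PLC5 cells. The lines overlapped for both genes, and neither passed, with differences of 0.31 and -0.08 for MAN2A1 (SE 0.32) and of -0.26 and -0.48 for MAN2A2 (SE 0.31). The reticulum mannosidase MAN1B1 differed by 0.36 and 0.30 and did not pass.

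Of the 6 genes of GlcNAc branching, MGAT1 and MGAT2, which place the first branches, did not pass (-0.45 to -0.21 over both siRNA groups). A dimmer MGAT1 probe was lower on every HA22T array (-0.68 to -0.18) than on any PLC5 array (-0.02 to 0.49). Another dimmer MGAT1 probe overlapped between the lines, as the brightest did. MGAT3 was not compared. MGAT4A, MGAT4B and MGAT5 passed with both siRNAs (beside 17.4% of the probes counted in both). MGAT4A and MGAT4B both place the same branch. MGAT4A read -1.75, -1.82 and -1.68 in HA22T siControl cells and -0.44, -0.21 and -0.43 in PLC5 siControl cells. The siGALNT1 arrays gave -2.36, -2.17 and -1.16 in HA22T cells and -0.68, 0.29 and -0.60 in PLC5 cells. It was lower on every HA22T array, by -1.39 (SE 0.35, adjusted p = 0.0148) and -1.57 (SE 0.35, adjusted p = 0.00775), and the siControl call was lost with the slide as a block (-1.17, adjusted p = 0.0895).

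MGAT4B read 3.48, 2.80 and 3.36 in HA22T siControl cells and 2.00, 1.98 and 2.30 in PLC5 siControl cells. After siGALNT1 the values were 3.03, 3.08 and 3.27 in HA22T cells and 2.46, 2.44 and 2.02 in PLC5 cells. It was higher on every HA22T array, by 1.12 (SE 0.26, adjusted p = 0.00859) and 0.82 (SE 0.26, adjusted p = 0.0409), and the second call held under 9 of 25 alternatives and was lost, among others, with the slide as a block (0.79, adjusted p = 0.109).

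MGAT5 makes the branch that poly-lactosamine chains extend. It read 2.17, 1.91 and 1.67 in HA22T siControl cells and 0.75, 0.53 and 0.56 in PLC5 siControl cells. With siGALNT1 it read 1.79, 1.86 and 1.80 in HA22T cells and 0.56, 1.05 and 0.17 in PLC5 cells. It was higher on every HA22T array, by 1.30 (SE 0.26, adjusted p = 0.00404) and 1.23 (SE 0.26, adjusted p = 0.00599), and a dimmer MGAT5 probe gave 1.06 and 1.02, both of which passed.

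Of the 5 genes of terminal and core sugars, 3 passed in siControl and 4 in siGALNT1 cells, beside 22.0% and 22.9% of all counted probes. ST6GAL1, which makes the alpha2,6-linked sialic acid typical of hepatocyte glycoproteins, was lower in HA22T cells. It read -4.57, -4.38 and -5.51 in HA22T siControl cells and -1.46, -1.32 and -1.57 in PLC5 siControl cells. The siGALNT1 arrays gave -4.45, -6.01 and -5.75 in HA22T cells and -1.92, -1.26 and -2.07 in PLC5 cells. Its probe was well above background on all 6 PLC5 arrays and on 3 of 6 HA22T arrays (2 siControl and 1 siGALNT1). The difference was -3.37 (SE 0.43, adjusted p = 1.85e-04) in siControl and -3.65 (SE 0.43, adjusted p = 1.11e-04) in siGALNT1 cells. Its size rests on HA22T signals close to background: with normexp background correction it was -2.17 and -2.05, still passed with both siRNAs, and was smaller than the difference of MAN1A1.

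ST3GAL4 and ST3GAL6, which make alpha2,3-linked sialic acid, were higher in HA22T cells. ST3GAL4 read 2.34, 2.01 and 2.02 in HA22T siControl cells and 1.06, 0.69 and 0.92 in PLC5 siControl cells. After siGALNT1 the values were 2.02, 2.38 and 2.24 in HA22T cells and 1.12, 0.94 and 0.60 in PLC5 cells. The lines did not overlap, and the difference was 1.23 (SE 0.24, adjusted p = 0.00321) in siControl and 1.33 (SE 0.24, adjusted p = 0.00207) in siGALNT1 cells.

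ST3GAL6 read -0.48, -0.25 and -0.14 in HA22T siControl cells and -2.45, -2.10 and -2.03 in PLC5 siControl cells. With siGALNT1 it read -1.08, -0.24 and -0.04 in HA22T cells and -2.53, -1.23 and -2.24 in PLC5 cells. HA22T siGALNT1 replicate 1 and PLC5 siGALNT1 replicate 2 came closest and did not cross. The difference was 1.90 (SE 0.37, adjusted p = 0.00325), or 3.73-fold, in siControl and 1.55 (SE 0.37, adjusted p = 0.0113), or 2.92-fold, in siGALNT1 cells. FUT8, which adds the core fucose, was higher on all 6 HA22T arrays and passed in siGALNT1 cells (0.90, adjusted p = 0.0167, or 0.0671 with the slide as a block) but not in siControl cells (0.61, adjusted p = 0.0912). B4GALT1, the galactosyltransferase that adds the galactose on which sialic acid is placed, differed by 0.25 and -0.13 and did not pass.

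**Figure D3:**
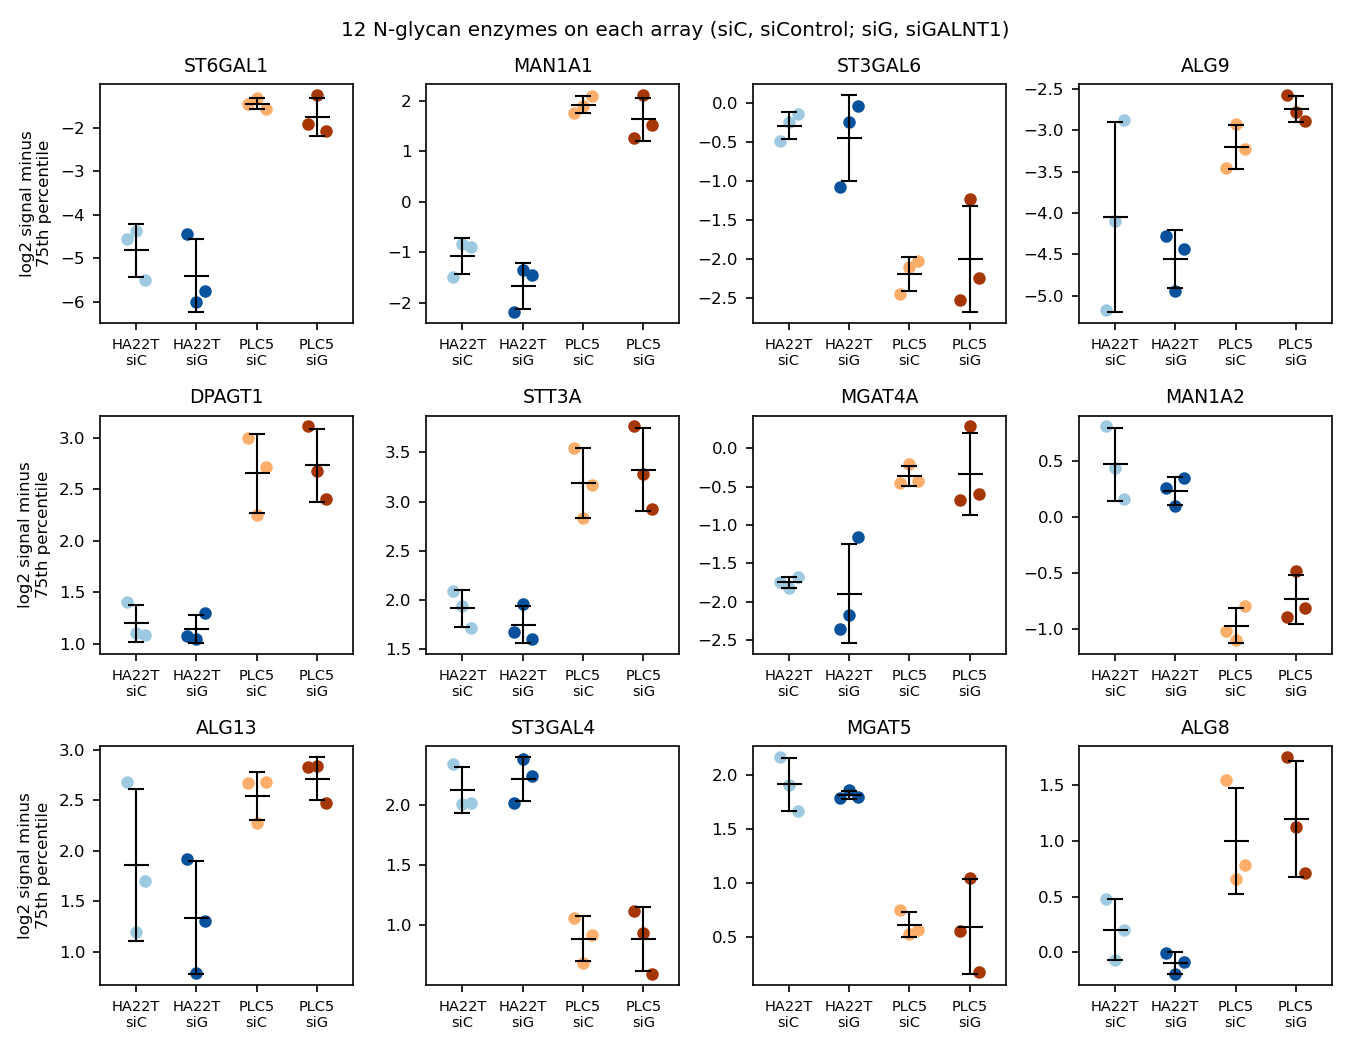
Log2 signal minus the 75th percentile of the array (y axis, a separate scale in each panel) on each of the 12 arrays for the 12 called N-glycan genes with the largest line differences, by group (x axis, 3 arrays each). Bars show the mean with SD. In 10 of the 12 panels, all but ALG9 and ALG13, the points of HA22T cells do not overlap those of PLC5 cells (beside 27.3% of 31056 probes). The genes were chosen by their line differences, which favors such separation, so this count is not a result about them.

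Pairs of enzymes that share a step were compared within each array, as the difference of their log2 values, which cancels the scaling of the array. The line labels were then permuted within each siRNA group (400 rearrangements, exact two-sided test, smallest possible p of 0.005), and p-values were adjusted over the 5 pairs. The test takes the arrays of a siRNA group as exchangeable and the siRNA groups as independent. Same-numbered HA22T arrays deviated together, and the slides were not balanced over the lines, so these p-values can be too small. With same-numbered arrays kept together, the smallest possible p would be 0.1. STT3A minus STT3B averaged 1.41 ± 0.36 and 1.33 ± 0.20 (SD) in HA22T siControl and siGALNT1 cells and 3.13 ± 0.33 and 3.08 ± 0.58 in PLC5 cells. The line difference was -1.74 (exact permutation p = 0.005, adjusted p = 0.00833), so the log2 value of STT3A relative to STT3B was lower in HA22T than in PLC5 cells.

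MAN1A1 minus MAN1A2 averaged -1.54 ± 0.66 and -1.89 ± 0.51 in HA22T cells and 2.89 ± 0.11 and 2.37 ± 0.21 in PLC5 cells, a line difference of -4.34 (exact permutation p = 0.005, adjusted p = 0.00833). MGAT4A minus MGAT4B averaged -4.96 ± 0.31 and -5.02 ± 0.52 in HA22T cells and -2.46 ± 0.27 and -2.64 ± 0.49 in PLC5 cells, a line difference of -2.45 (exact permutation p = 0.005, adjusted p = 0.00833). In these pairs the arrays of the lines did not overlap.

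MAN2A1 minus MAN2A2 differed by 0.49 (exact permutation p = 0.035, adjusted p = 0.0438) with overlapping arrays, and it no longer passed in 9 of the 12 repeats that left out 1 array each (adjusted p up to 0.0875). ST3GAL4 minus ST3GAL6 differed by -0.44 (exact permutation p = 0.155, adjusted p = 0.155), and the arrays overlapped. On the slide that holds both lines, the line differences were -2.23 for STT3A minus STT3B, -4.19 for MAN1A1 minus MAN1A2, 0.77 for MAN2A1 minus MAN2A2, -2.20 for MGAT4A minus MGAT4B and -1.03 for ST3GAL4 minus ST3GAL6.

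**Figure D4:**
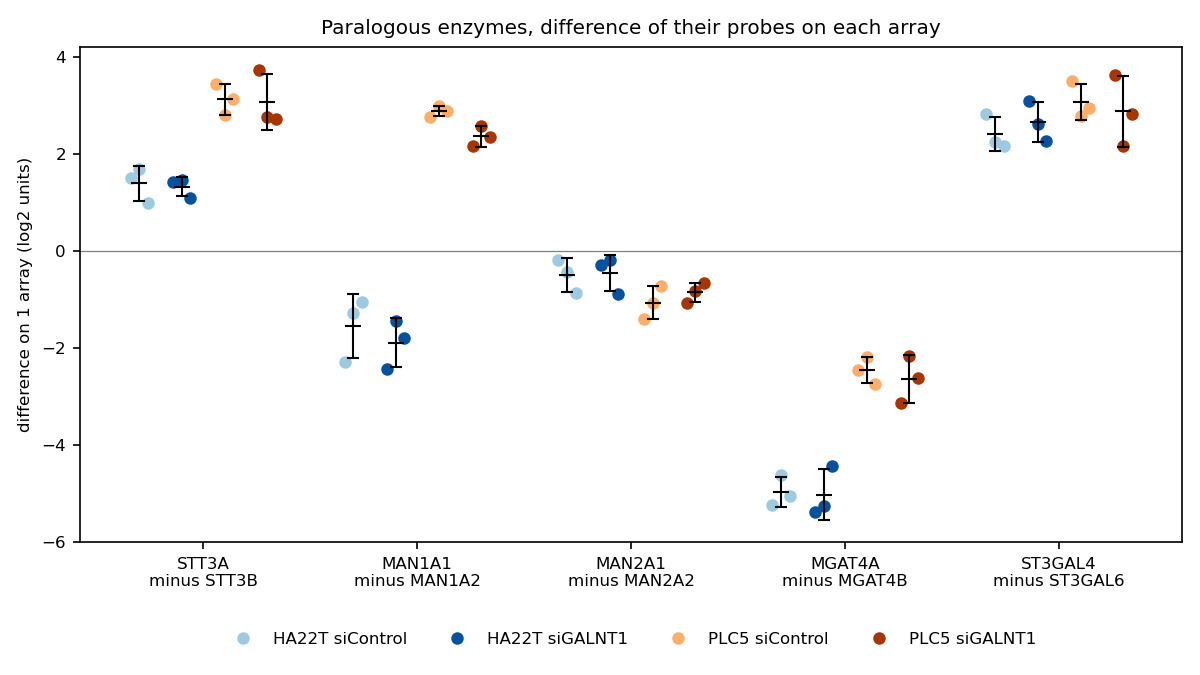
Difference between the log2 values of paralogous or paired enzymes on each array (y axis, log2 units) for 5 pairs (x axis), by group (color, 3 arrays each, with mean and SD). The HA22T points lie below the PLC5 points for STT3A minus STT3B, MAN1A1 minus MAN1A2 and MGAT4A minus MGAT4B, and the lines overlap in the other pairs.

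Of 52 further genes of N-glycosylation that are not among the 38 (dolichol and sugar-nucleotide synthesis, other oligosaccharyltransferase subunits, folding lectins, transporters and other Golgi enzymes), 0 of 52 in HA22T and 0 of 51 in PLC5 cells passed an adjusted p of 0.05 after siGALNT1. The criterion of fold and unadjusted p was met by 0 and 1 (ST6GAL2, chosen here after its values were seen), beside 2.87% and 1.29% of all counted probes. Between the lines 14 of 52 passed in siControl cells (7 higher and 7 lower in HA22T) and 15 of 51 in siGALNT1 cells (3 higher and 12 lower), beside 22.0% and 22.9% of all counted probes, and 9 of 51 passed with both siRNAs in the same direction, beside 17.4%. GFPT2 and UAP1, which make the donor of GlcNAc, were higher in HA22T cells, by 3.11 and 3.17 for GFPT2 and by 2.07 and 1.91 for UAP1. GFPT1, the paralogue of GFPT2, was lower in HA22T cells (-1.40 and -1.47). With the slide as a block GFPT2 differed by 4.33 and 4.40, and GFPT1 by -0.97 (adjusted p = 0.0596) and -1.05 (adjusted p = 0.0418).

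MAGT1 and TUSC3, alternative subunits of the STT3B form of the oligosaccharyltransferase, were both lower in HA22T cells. MAGT1 differed by -1.61 and -2.03 and TUSC3 by -1.19 and -1.66. PMM2 and MPI, which supply mannose phosphates, were also lower in HA22T cells, at -1.67 and -1.65 for PMM2 and -1.46 and -1.45 for MPI. The Golgi GDP-fucose transporter SLC35C1 differed by -1.38 and -1.44. GNPNAT1, of GlcNAc donor synthesis, and NUS1, of dolichol synthesis, passed in siGALNT1 cells (-1.64 and -1.44) and not in siControl cells (-0.69 and -1.002), and the NUS1 call was lost with the slide as a block (adjusted p = 0.0535).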

How the data were processed

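Dye-labeled cDNA of 12 RNA samples was hybridized to 12 one-color Agilent arrays. The deposited intensity values are the background-subtracted processed signals and the spot and background medians that the authors obtained with Agilent Feature Extraction 10.5.1.1. The authors also deposited a log2 table whose columns have their 75th percentile at about 0. It correlated with the values used here at 0.99998 or more, and its scaling is not given in the sources used here.

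From each log2 processed signal the 75th percentile of its array was subtracted. Spots for controls or flagged as non-uniform were dropped, and spots of a probe were averaged. RefSeq accessions named 28174 of 50599 probes through GRCh38.p14. The 4 groups were fitted together with limma 3.58.1 (R 4.3.3), and p-values were adjusted by Benjamini-Hochberg over all counted probes. The fit was tested on simulated data. The labels do not say that replicates were separate cultures, so p-values measure the spread between these arrays.

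Same-numbered HA22T arrays deviated together (correlations 0.513, 0.266 and 0.325, each over 0.1). For PLC5 arrays the correlations were 0.570, 0.0120 and 0.179 for replicates 1, 2 and 3. The PLC5 arrays of replicate 1 were the ones on the first slide, so their shared deviation cannot be told apart from a slide difference. The replicate number was therefore also fitted as a block. This pairing comes from the values. The 38 genes, the other lists and the tests were chosen with earlier results of these data known. Values per array are given for the 12 called genes with the largest line difference, for both genes of each pair and for GALNT1, and at most 10 further genes were named. Alternatives were normexp (offset 50, on spot medians), quantile and median scaling, the deposited table, other filters on dim probes, non-uniform spots kept, slide and replicate blocks, the methods' t-test, fits of the compared groups alone, means over probes, each array left out and, chosen after seeing the data, the percentile over unflagged spots. Replicate correlations were 0.968 to 0.988. The number of arrays limits the precision.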

Additional observations from a re-analysis of the deposited data

How the results depend on the processing

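No line call was reversed under any alternative (32 calls of a gene in a siRNA group). With the replicate block, 16 genes passed between the lines in siControl and 21 in siGALNT1 cells (all earlier calls, with ALG3, ALG8 and ALG12 in siControl and ALG3 and ALG14 in siGALNT1 cells), and 1 gene met the criterion of the methods after siGALNT1 in HA22T cells (1752 of all probes did, beside 1043 without the block), while 0 did so in PLC5 cells. That HA22T count was also 1 with normexp, the deposited table and non-uniform spots kept, where the gene was ALG1. The share of all probes at the criterion was not counted under those settings. The count of line differences in siGALNT1 cells was 7 with the methods' t-test and 9 with the compared groups fitted alone (3967 and 5288 of all probes, beside 8407). GALNT1 passed with normexp in HA22T (-4.26, adjusted p = 0.000167) and PLC5 cells (-3.38, adjusted p = 0.0090) and with the mean over probes in HA22T cells (-4.93, adjusted p = 0.0326). MAN2A1 minus MAN2A2 did not pass with normexp (0.48, adjusted p = 0.0625). On the slide with both lines, the differences were -2.23 for STT3A minus STT3B, 0.77 for MAN2A1 minus MAN2A2 and -1.03 for ST3GAL4 minus ST3GAL6. The causes of these changes were not tested.

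Line differences that changed sign were not called. They were ALG1 in siControl cells (0.12 with normexp, 0.013 with median scaling, 0.062 with unflagged spots) and in siGALNT1 cells (-0.99 with the mean over probes), DDOST in siControl (-0.011 with quantile scaling) and siGALNT1 cells (0.074 with unflagged spots), ALG2 in siControl cells (0.054 with the mean over probes), and, in siGALNT1 cells, ALG11 (-0.096 with the slide block), MAN2A1 (0.28 with the slide block, 0.15 with unflagged spots) and B4GALT1 (0.092 with unflagged spots). Taking the percentile over unflagged spots shifted the median of all probes by 0.12 after siGALNT1 in HA22T cells and by 0.11 and 0.22 between the lines in siControl and siGALNT1 cells.

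Without 1 array each, the line counts were 11 to 13 in siControl and 9 to 19 in siGALNT1 cells. With all arrays they were 13 and 19, beside 22.0% and 22.9% of all counted probes. The count of 9 came without PLC5 siGALNT1 replicate 1, where 6782 of 36700 counted probes passed. The genes at the criterion after siGALNT1 were 0 to 2 in HA22T cells (MAN1A1 and ALG9 without HA22T siControl replicate 1, ST6GAL1 without HA22T siGALNT1 replicate 1, ALG1 without HA22T siControl replicate 2), 0 in PLC5 cells and 0 to 1 for the interaction. The share of all probes at this criterion was not counted without single arrays, so these counts are not read as results about the genes. The GALNT1 difference was -5.59 to -4.39 in HA22T cells and -4.31 to -3.31 in PLC5 cells, and MAN2A1 minus MAN2A2 was 0.40 to 0.59. Line differences that crossed 0 were ALG1 (-0.65 to 0.52), ALG5 (-0.45 to 0.071) and DDOST (-0.011 to 0.26) in siControl cells, and ALG11 (-0.074 to 0.24), DDOST (-0.37 to 0.051) and MAN2A1 (-0.26 to 0.19) in siGALNT1 cells.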
